A study of Rattus norvegicus with 12 samples.

Results

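The comparison set chronic stress against the remaining groups in rat testis. The 6 libraries of rats exposed to RS+IS (restraint stress followed by swimming in ice water) for 14 or 21 days formed the chronic arm, and the 6 libraries of control rats and of rats exposed for 3 days formed the other arm. These are all 12 libraries of the series, 3 in each group, and the arms were set by the sample labels. All animals were male Sprague Dawley (SD) rats, and each sample was RNA of testis tissue. An age of 8 weeks is recorded for every sample, whatever the length of its stress period. Stressed rats were sampled at the end of that period, so age at sampling may have differed between the arms. The part of age in the results was not tested. Stressed rats were held supine for several hours on each day of their period and then swam in ice water. Control rats were not restrained, but they too went without food and water for those hours, so that deprivation was shared by all 4 groups. The labels do not say to which period the 3 control samples belong. Bulk testis RNA was measured, so fewer cells of a type and less RNA per cell cannot be told apart in any value below.

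Spermatogenesis runs from spermatogonia (SPG), the dividing germ cells at the base of the tubule, through spermatocytes (SPC), which carry out meiosis, to spermatids, which build the acrosome and the tail and repack their DNA. During that repacking histones give way to transition proteins and then to protamines. Stress hormones released under prolonged restraint are known to act on the testis, and the germ cells divide and mature in a fixed order along the tubule.

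The deposited values were estimated counts per transcript, and 578 germ cell markers were named among them, 12 of SPG, 181 of SPC and 385 of spermatids. Each marker was 1 feature, and every other transcript was a feature without a gene name. Levels are given as CPM (counts relative to library size), which do not compare 1 gene with another because transcripts differ in length. A feature was called when its adjusted p from the quasi-likelihood test of edgeR was under 0.05 over all 20975 features tested. Total estimated counts ranged from 23908048 to 28416794 in the chronic arm and from 25720442 to 29404590 in the other arm. Control replicate 1 and 21-day replicate 1 stood apart from the rest of their arms on the principal components (18.1% and 14.7% of the variance on the first and second).

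Most spermatid markers lay above 0 and most SPG markers below 0 in the comparison, while SPC markers lay close to 0. Of the 385 spermatid markers, 353 had a positive log2 fold change, and their median was 0.15 against 0.00052 over all features tested. Of the 12 SPG markers, 11 had a negative log2 fold change, with a median of -0.21. The 181 SPC markers had a median of -0.04, and 137 of them were negative.

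By the test, 70 markers rose and 13 fell in the chronic arm. All 70 that rose were spermatid markers, and no SPG or SPC marker rose. The 13 that fell were 4 SPG markers (Stra8 among them, whose deposited values disagree with each other as described below), 8 SPC markers and the spermatid marker Bcas2. Across all features, 7.28% were called, 4.98% higher and 2.29% lower. Against that background 18.2% of the spermatid markers rose, 33.3% of the SPG markers fell and 4.42% of the SPC markers fell. The background is not matched for level, and a call depends on the counts as well as on the size of a change. The median CPM in the other arm was 152 for spermatid markers, 152 for SPC markers, 25.0 for SPG markers and 10.9 over all features. The rises were between 8.81% and 42.7%, and the falls lay between the log2 fold changes of -0.54 and -0.14. The value of -0.54 was that of Stra8 as deposited, and the next lowest was -0.36 (Tex19.1). Scaled by the markers alone, 71 markers fell rather than 13, 61 of them SPC markers, so the count of lower SPC markers rests on the scaling. Most markers in that scaling are spermatid markers, the class that lay above 0. It moved the median of all features to -0.08, so more falls follow from that choice. With 1 library left out, the number of markers that rose ranged from 11 (without 21-day replicate 3) to 131 (without control replicate 2), and without both libraries that stood apart 14 rose and 6 fell.

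**Figure D1:**
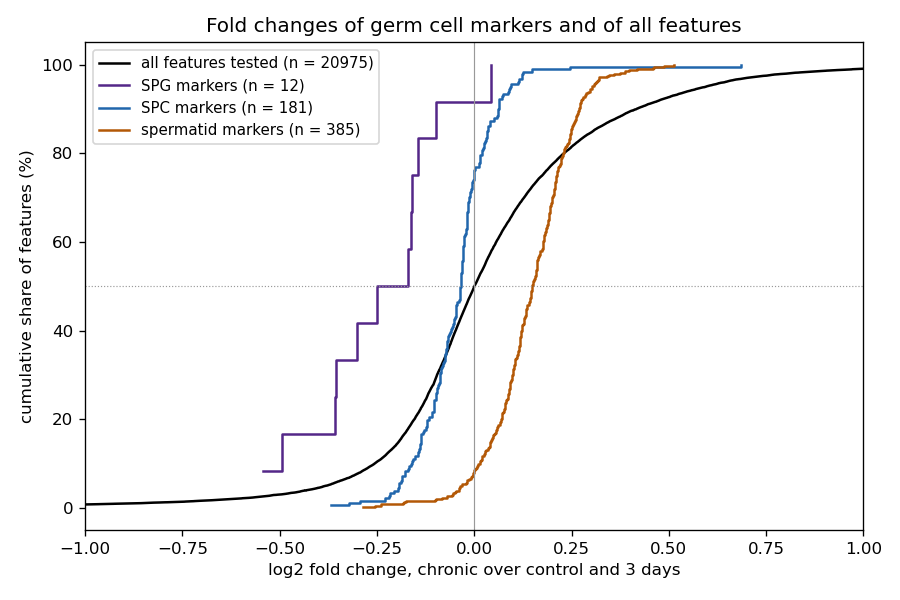
Cumulative share of features (%, y axis) by log2 fold change of the chronic arm over the control and 3-day arm (x axis, shown from -1 to 1) for all 20975 features tested and for the 12 SPG, 181 SPC and 385 spermatid markers. The spermatid curve lies to the right of 0 with a median of 0.15, the SPC curve crosses 50% close to 0 and the SPG curve lies to the left with a median of -0.21.

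The classes were also followed by 1 value a library, the mean log2 CPM of its markers, given as a description. For SPG markers this mean was between 4.42 and 4.55 in the chronic libraries and between 4.65 and 4.98 in the others, so the arms did not overlap. For spermatid markers it was between 7.18 and 7.37 in the chronic libraries and between 6.99 and 7.22 in the others, and the arms overlapped. For SPC markers it was between 7.06 and 7.20 and between 7.08 and 7.26, almost the same range.

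Among the SPG markers, Tex19.1, a germ cell gene that restrains transposable elements, fell in the chronic arm. Its CPM was 11.95, 13.4 and 14.5 (lowest, median and highest) in the chronic libraries and 16.0, 17.1 and 17.9 in the others. Every chronic library lay below every library of the other arm. The log2 fold change was -0.36 ± 0.06 (SE, adjusted p = 0.00898). Ccne2 encodes cyclin E2, which drives entry into DNA synthesis. It had 49.5, 54.4 and 60.8 CPM in the chronic libraries and 66.9, 68.3 and 76.6 in the others, without overlap (log2 fold change -0.36 ± 0.05, adjusted p = 0.00531). Slc25a31, a germ cell ADP/ATP carrier of mitochondria, had 66.0, 70.0 and 73.3 CPM against 75.1, 77.8 and 82.6, again without overlap (log2 fold change -0.16 ± 0.04, adjusted p = 0.0258).

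The remaining SPG markers other than Stra8 did not pass the test. Hspa5, the main chaperone of the endoplasmic reticulum, came closest with a log2 fold change of -0.17 ± 0.05 (adjusted p = 0.0702), followed by Nucks1 at -0.30 ± 0.10 and the RNA-binding protein gene Elavl2 at -0.25 ± 0.09. Control replicate 1 stood high for Hspa5 (723 CPM against 594 to 612 in the rest of its arm). It did so for Nucks1 too (32.6 against 21.3 to 24.5). With 1 library left out, the log2 fold changes of Hspa5 and Nucks1 were at most -0.13 and -0.21. Cited1 had -0.49 ± 0.21 (adjusted p = 0.159), a value that 1 library carried. Its CPM was 48.7 in control replicate 1 and between 19.2 and 23.8 in the other 5 libraries of that arm, and without that library its log2 fold change was -0.21. Rac1 had a log2 fold change of -0.16 ± 0.10, Cdk2ap2 of -0.14 ± 0.14, Atad5 of -0.10 ± 0.05 and the cyclin D1 gene Ccnd1 of 0.04 ± 0.20, the sign of which changed with the libraries used.

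Stra8, which starts meiosis in response to retinoic acid, needs a caution before its values. In the deposited tables the TPM (a level relative to effective length and to the library) of a transcript can be worked out from its count and its effective length, to within 0.00097%. The exceptions were Stra8 in all 6 chronic libraries and Piwil1 in the 3 libraries of 14 days, with deviations between -11.2% and 5.41%. The TPM values of a library should sum to 1000000, and they fell short of it by 10 to 18.01 TPM at 14 days and by 0.02 to 3.97 TPM at 21 days, against 0.09 or less in the other arm. As deposited, Stra8 had 5.55, 6.51 and 7.59 CPM in the chronic libraries and 8.71, 9.42 and 11.4 in the others, with a log2 fold change of -0.54 ± 0.10 (adjusted p = 0.0104). With counts worked out from its deposited TPM the log2 fold change was -0.58 (adjusted p = 0.00552). With the missing TPM added to Stra8 it was 0.31 (adjusted p = 0.435). With it given to Piwil1 at 14 days and to Stra8 at 21 days it was -0.40 (adjusted p = 0.0346). The direction of Stra8 therefore depends on where the missing TPM belong, which was not tested, and its call is given only as deposited. Without Stra8 and Piwil1, 3 of 11 SPG markers fell, 10 of 11 were negative with a median of -0.17, and the class means again did not overlap (4.58 to 4.72 against 4.78 to 5.14 log2 CPM).

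**Figure D2:**
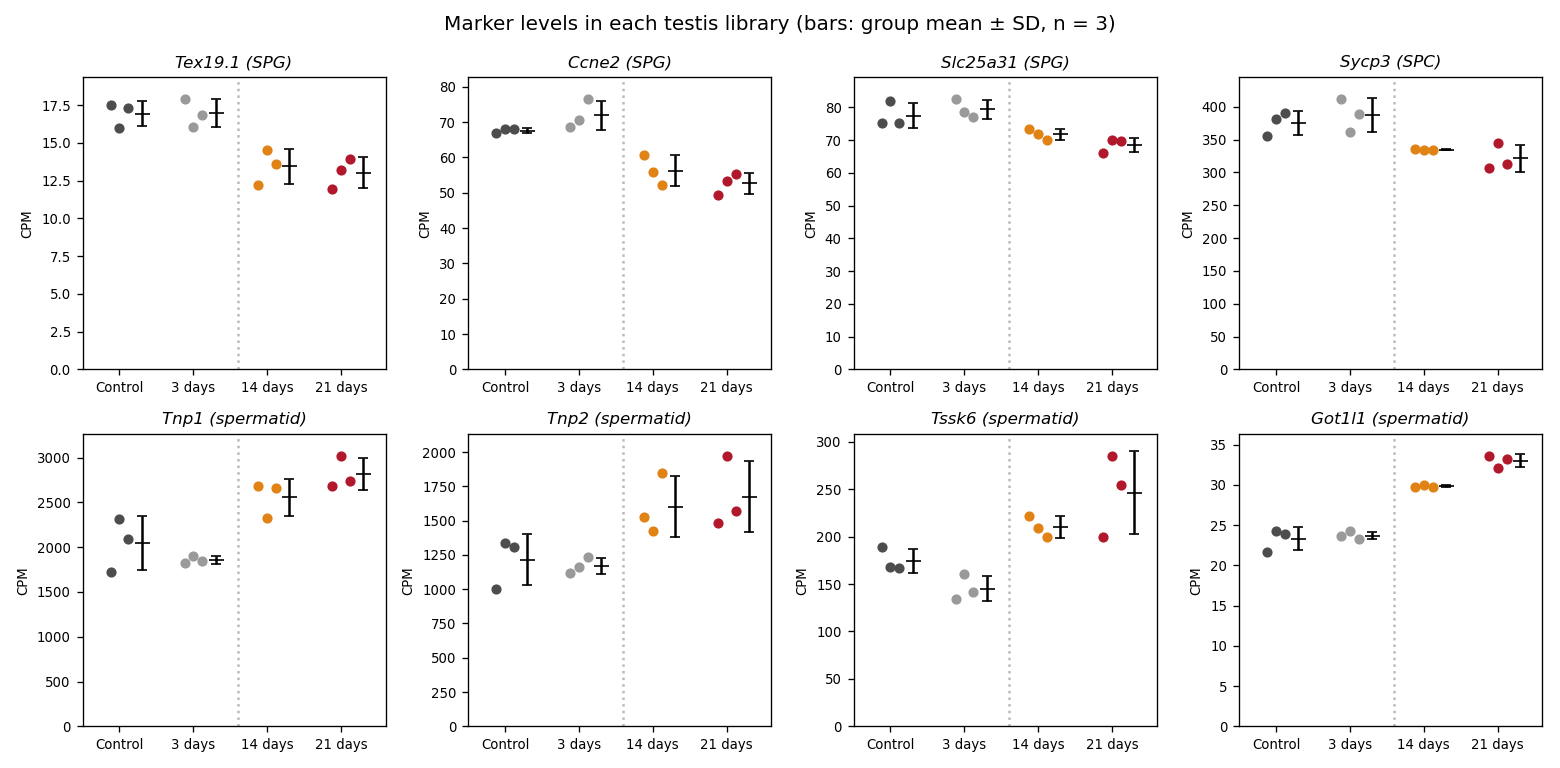
CPM (y axis, from 0) of 8 called markers in each library, by group (x axis), with the dotted line between the arms and bars for the group mean ± SD (n = 3). In each panel the 6 chronic libraries lie on 1 side of the other 6, lower for Tex19.1, Ccne2, Slc25a31 and Sycp3 and higher for Tnp1, Tnp2, Tssk6 and Got1l1.

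Among SPC markers, Sycp3, a core protein of the synaptonemal complex that joins paired chromosomes, fell without overlap. Its CPM was 306, 335 and 346 in the chronic libraries and 355, 385 and 412 in the others (log2 fold change -0.22 ± 0.04, adjusted p = 0.0141). Psma8, a subunit of the testis-specific proteasome, had 84.7, 101 and 103 CPM against 107, 111 and 118 (log2 fold change -0.21 ± 0.05, adjusted p = 0.0301). Ube2t, a ubiquitin-conjugating enzyme of DNA repair, had a log2 fold change of -0.23 ± 0.06 (adjusted p = 0.0469), and the calmodulin gene Calm2 one of -0.15 ± 0.04 (adjusted p = 0.0393). Chmp2b, of the membrane-sorting ESCRT complex, had -0.14 ± 0.04 (adjusted p = 0.0477). The arms of these 3 markers did not overlap either. Cox7b2 (-0.19) and the condensin gene Smc4 (-0.16) fell with overlapping arms. Piwil1, which binds piRNAs and carries the caution given for Stra8, was at -0.18 ± 0.06 and did not pass as deposited (adjusted p = 0.104).

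Of the 9 markers of meiotic chromosomes and meiotic entry, 3 fell (33.3%, against 2.29% of all features) and none rose, with a median of -0.09. The 3 were Sycp3, Tex19.1 and Stra8, the last under its caution. Tex19.1 and Stra8 are SPG markers, a class of which 33.3% fell, and Sycp3 is an SPC marker, of which 4.42% fell. The share of this list is thus no higher than that of the SPG class. Sycp2, the partner of Sycp3 on the chromosome axis, had -0.09 ± 0.04 (adjusted p = 0.219), and the meiotic cyclin gene Ccna1 0.03 ± 0.04. Of 20 cell division markers, 3 fell (Ccne2, Ube2t and Smc4, 15% of the list) and none rose. Of 9 markers of germline RNA regulation, Tex19.1, already counted among the meiotic markers, fell (11.1%) and none rose. Bcas2, a splicing factor gene, was the only spermatid marker that fell, with 21.3, 22.8 and 23.3 CPM in the chronic libraries against 24.1, 27.2 and 28.6 (log2 fold change -0.26 ± 0.05, adjusted p = 0.0131).

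The transition protein genes Tnp1 and Tnp2 were among the spermatid markers with the highest fold changes. Tnp1 had 2323, 2685 and 3020 CPM in the chronic libraries and 1721, 1874 and 2320 in the others. The lowest chronic library lay just above the highest of the other arm, control replicate 2, so the arms were apart by a small gap (log2 fold change 0.46 ± 0.07, adjusted p = 0.00751). Tnp2 had 1423, 1552 and 1973 CPM against 999, 1197 and 1339, without overlap (log2 fold change 0.46 ± 0.09, adjusted p = 0.0138). Of 6 markers listed under sperm chromatin packaging, 3 rose (50%, against 4.98% of all features and 18.2% of the spermatid markers). The third was Prm3 at 0.26 ± 0.07 (adjusted p = 0.0495). Its call was lost in 20 of 27 alternative settings, and a part of Prm3 in packaging DNA was not tested. The other 3, Hmgb4 (0.19), Chd5 (0.10) and Hils1 (0.07), had positive values that did not pass. The summed CPM of the 6 was between 5249 and 6717 in the chronic libraries and between 4007 and 5197 in the others, without overlap. That sum averaged 5883 CPM in the chronic arm and 4553 in the other. Most of it was Tnp1 (means of 2685 and 1950 CPM) and Tnp2 (1639 and 1192). It thus largely repeats these 2 genes and is not separate evidence on the list. The sums of the other function lists overlapped between the arms.

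These are short transcripts (Tnp1 409 bases, Prm3 515 and Tnp2 553), and length moved with the arms. The median log2 fold change over all features was 0.08 under 500 bases, 0.04 from 500 to 1000, where Prm3 and Tnp2 fall, -0.01 from 1000 to 2000, -0.01 from 2000 to 4000 and 0.0031 above that. The effective length, which is the length left after allowing for fragment size, was between 90.33% and 90.69% of the length of transcripts of at least 1000 bases in chronic libraries and between 89.63% and 90.03% in the others. The arms did not overlap in it (exact permutation p = 0.00216, two-sided, n = 6 against 6). With the effective length as an offset, Tnp1 was at 0.39 (adjusted p = 0.0135) and Tnp2 at 0.41 (adjusted p = 0.0196), and 71 markers rose and 12 fell.

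**Figure D3:**
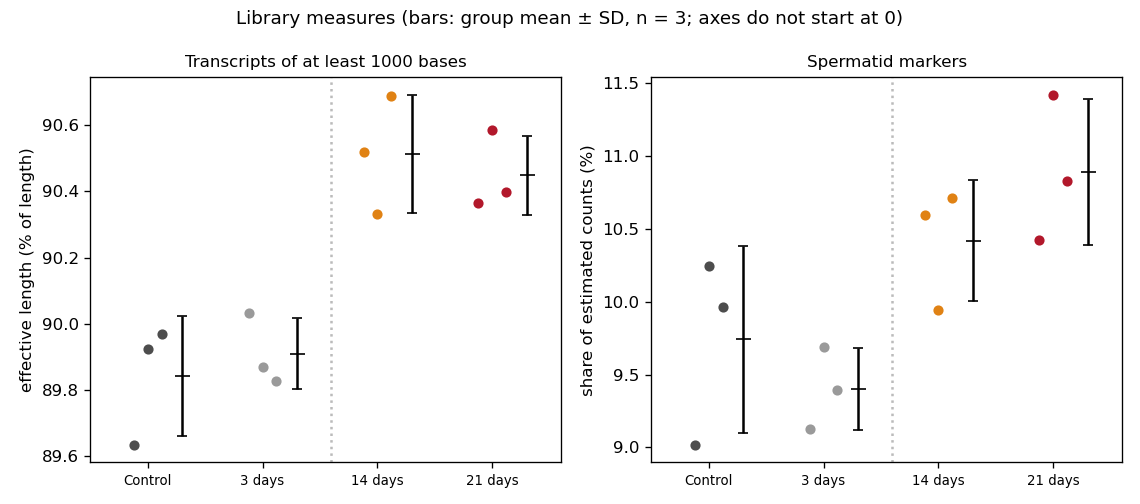
Effective length as a percent of length for transcripts of at least 1000 bases (left y axis) and the share of estimated counts in spermatid markers (%, right y axis) in each library, by group (x axis), with bars for the group mean ± SD (n = 3). Effective length lies between 89.63% and 90.03% in control and 3-day libraries and between 90.33% and 90.69% in chronic ones, while the spermatid share, 9.02% to 10.2% against 9.94% to 11.4%, overlaps.

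Among the testis-specific kinases, which act in late spermatids, 2 of 7 rose (28.6%, against 4.98% of all features and 18.2% of the spermatid markers). Tssk6, needed for sperm chromatin condensation, had 199, 216 and 285 CPM in the chronic libraries and 134, 164 and 189 in the others. The arms did not overlap, and its log2 fold change of 0.51 ± 0.10 (adjusted p = 0.0140) was the highest of the called markers. Its kinase relative Tssk4 had 0.18 ± 0.05 (adjusted p = 0.0353), also without overlap.

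Of 13 energy metabolism markers, Got1l1, a relative of the cytosolic aspartate aminotransferase, rose (7.69%) and Slc25a31 and Cox7b2 fell (15.4%). Beside the lists of this paragraph, 4.98% of all features rose and 2.29% fell, and 18.2% of the spermatid markers rose. Got1l1 had 29.7, 31.0 and 33.6 CPM in the chronic libraries and 21.6, 23.8 and 24.3 in the others, without overlap (log2 fold change 0.42 ± 0.05, adjusted p = 0.00367). Of 27 markers of ubiquitin and the proteasome, Triml1 (0.28), Ube2g2 (0.27) and Otub2 rose (11.1%), and Ube2t and Psma8 fell (7.41%). All 16 lipid metabolism markers were positive, with a median of 0.11, where 91.7% of the spermatid markers were positive with a median of 0.15. Of the 16 lipid markers, 2 rose (12.5%), the fatty acyl-CoA synthetase gene Acsl1 at 0.26 ± 0.07 (adjusted p = 0.0447) and the triglyceride synthesis gene Dgat2 at 0.19 ± 0.05 (adjusted p = 0.0349). Both had overlapping arms.

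Of 24 flagellum and motility markers, 3 rose, the sperm sodium pump gene Atp1a4 (0.31 ± 0.07, adjusted p = 0.0228), the fibrous sheath gene Cabyr (0.20) and Odf3 (0.20), and the list median was 0.07. That is 12.5% of the list, where 4.98% of all features and 18.2% of the spermatid markers rose. Odf1 (0.27 ± 0.08, adjusted p = 0.0583) and Akap4 (0.21 ± 0.07, adjusted p = 0.0980), main proteins of the outer dense fibres and the fibrous sheath, did not pass. Of 25 acrosome markers only Eqtn rose (0.17 ± 0.05, adjusted p = 0.0448), which at 4% of the list is near the share over all features. Of 17 chaperone markers, Dnajc5b (0.23) and Dnaja4 (0.25) rose (11.8%, against 4.98% of all features and 18.2% of the spermatid markers) and none fell.

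Further spermatid markers with arms apart were Ccdc27 (log2 fold change 0.49), Spata18 (0.38), Ctag2 (0.32), Ccdc169 (0.32), Mical3 (0.28) and Mllt11 (0.27). Spata18, a mitochondrial quality control gene, had 1173, 1259 and 1551 CPM in the chronic libraries against 869, 999 and 1152. Mical3 acts on actin filaments. Of the 70 markers that rose, 28 (40%) had arms that did not overlap, and so had 10 of the 13 that fell (76.9%). Among all called features the arms were apart for 58.3% of those higher and 54.7% of those lower, so the share was lower among the markers that rose and higher among those that fell. Over all features tested, called or not, 4.85% had arms apart (3.19% higher and 1.65% lower), and 4.16% were both called and apart. At the threshold, Atxn3 and Ankrd61 (both adjusted p = 0.0499) lay just inside it and Usp50 (adjusted p = 0.05004) and Cdrt4 (adjusted p = 0.0503) just outside.

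**Figure D4:**
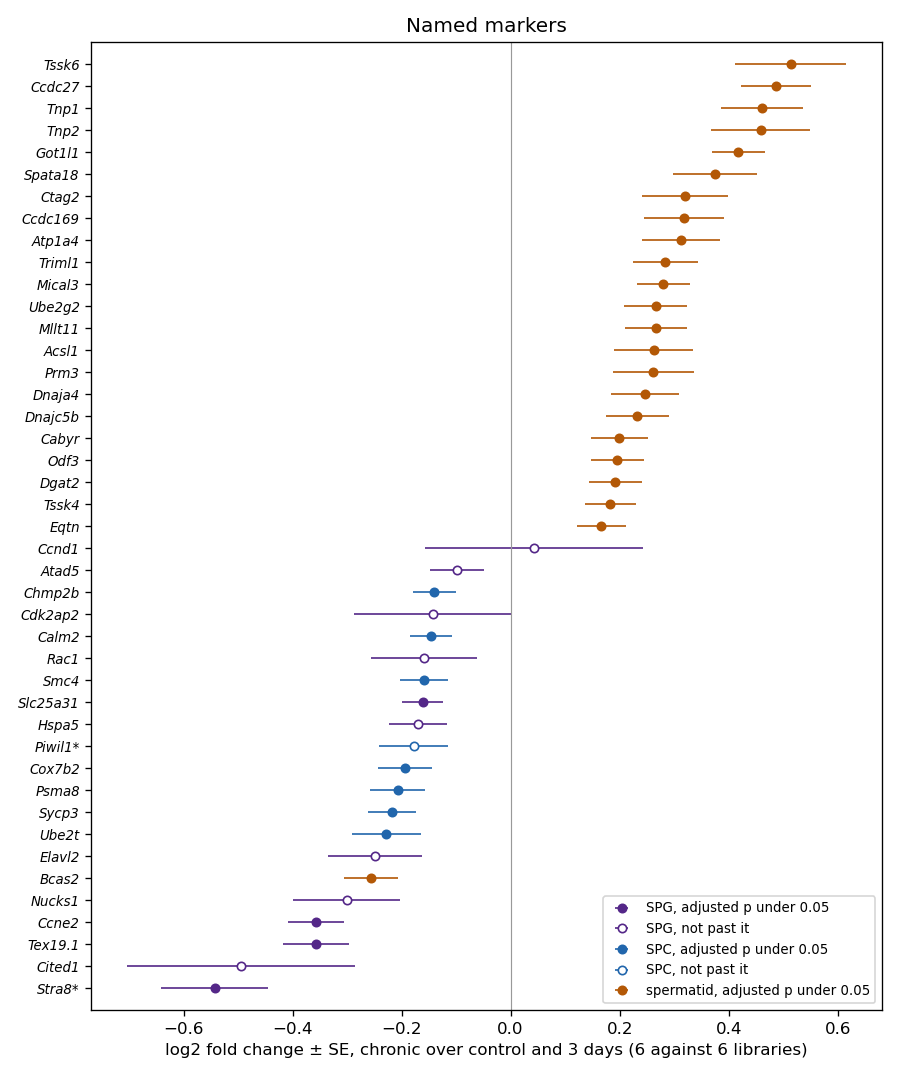
Log2 fold change ± SE (x axis) of the chronic arm over the control and 3-day arm for the 43 named markers (y axis, ordered by value), coloured by class and filled where the adjusted p is under 0.05. Values run from -0.54 for Stra8 to 0.51 for Tssk6, and an asterisk marks Stra8 and Piwil1, for which the deposited count and TPM disagree.

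Each arm was then taken apart into its groups. All 70 markers that rose and all 13 that fell had that same sign in each of the 4 comparisons of a chronic group with a group of the other arm, which share libraries with the 6 against 6 comparison. This was so for every called feature (1045 of 1045 higher and 481 of 481 lower), so the call itself fixes it and it says nothing particular to the markers. Of all features tested, called or not, 57.2% had 1 sign in all 4. The median log2 fold change of the 70 was 0.19 for 14 days against control, 0.24 for 14 days against 3 days, 0.27 for 21 days against control and 0.30 for 21 days against 3 days. For the 13 that fell it was -0.17, -0.18, -0.23 and -0.27. Taken alone, with 3 libraries against 3 in a fit of all groups, 10 of the 70 and 4 of the 13 passed the test at 21 days against control, and 4 and 2 at 21 days against 3 days. None passed at 14 days, against either group. Of all features, 3.43% were called at 21 days against control, 0.205% at 21 days against 3 days, 0.062% at 14 days against control and 0% at 14 days against 3 days.

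Within the arms no marker passed. Between 21 and 14 days 1 feature of 20975 (0.00477%) was called by edgeR, 701 (3.34%) were at an unadjusted p under 0.05 and DESeq2 called 2. Between 3 days and control 1 was called by edgeR (0.00477%), 1054 (5.03%) were at an unadjusted p under 0.05 and DESeq2 called 26. The 70 markers that rose had a median of 0.06 between 21 and 14 days, with 59 of them positive, and -0.04 between 3 days and control, with 21 positive. The 13 that fell had -0.06 between 21 and 14 days, with 12 of them negative, and 0.04 between 3 days and control, with 3 negative. Between 21 and 14 days the median was 0.09 for all features called higher, -0.05 for all called lower and 0.05 for all spermatid markers. Between 3 days and control these medians were 0.09, -0.02 and -0.04. The values of 0.06 and -0.06 are therefore not particular to the called markers, and signs were not counted over all features. With the 21-day group left out no feature was called, with the control group left out 3 were (2 higher, 1 lower), with the 3-day group left out 307 rose and 68 fell, and with the 14-day group left out 203 rose and 65 fell. In each of those settings the 34 called named markers kept their direction, but few kept their call, 0 without the 21-day group, 0 without the control group, 3 without the 3-day group and 10 without the 14-day group.

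**Figure D5:**
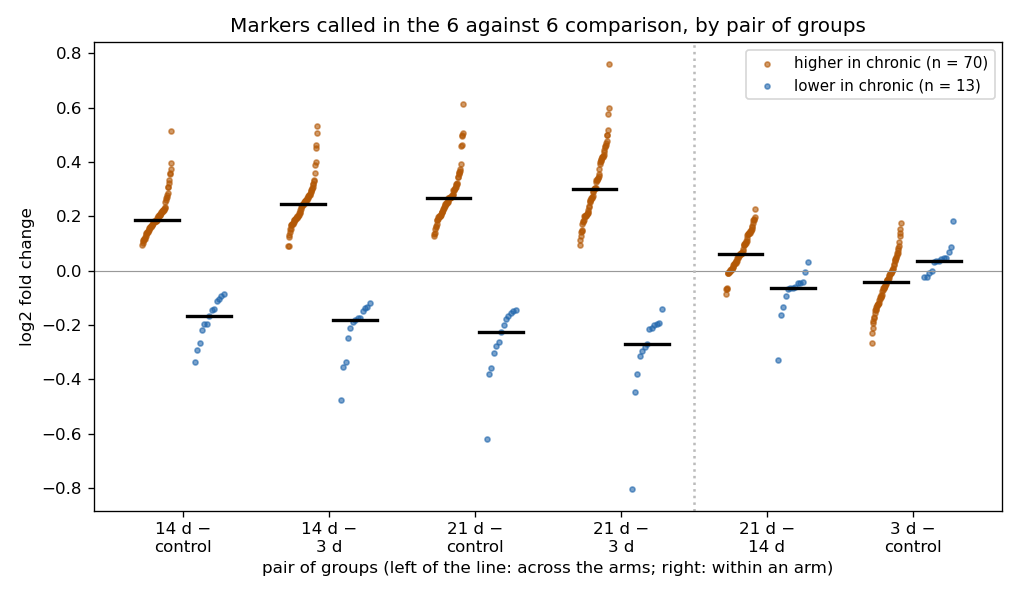
Log2 fold change (y axis) of the 70 markers called higher and the 13 called lower for each pair of groups (x axis), with a point a marker and a black bar at the median. In the 4 pairs across the arms all points of a set lie on 1 side of 0, as for every called feature, with medians from 0.19 to 0.30 and from -0.27 to -0.17, and within the arms the medians are 0.06 and -0.06 between 21 and 14 days, where 59 of 70 and 12 of 13 points keep their sign, and -0.04 and 0.04 between 3 days and control, where 21 of 70 and 3 of 13 do. Over all called features the medians between 21 and 14 days are 0.09 (higher) and -0.05 (lower).

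Outside the markers, 975 transcripts rose and 468 fell. Those with the highest and lowest fold changes among the called ones with arms apart are given by identifier, since they have no gene name here. ENSRNOT00000056436.3, ENSRNOT00000011056.7 and ENSRNOT00000086820.1 passed the low-count filter only through the arm where they are high, so their values are a description. ENSRNOT00000056436.3 had estimated counts of 21, 47 and 34 in the control libraries and 47, 68 and 98 in the 3-day libraries, but 0, 10 and 4 at 14 days and 0 in all 3 libraries at 21 days. ENSRNOT00000019320.2 had counts between 104 and 188 in the other arm and between 12 and 82 in the chronic arm (log2 fold change -1.88, adjusted p = 0.0141). In the opposite direction, ENSRNOT00000011056.7 had counts between 11 and 63 in the chronic libraries and 10, 10 and 0 in control and 0 in all 3 libraries at 3 days. ENSRNOT00000086820.1 had counts between 13 and 26 in the chronic libraries and between 0 and 12 in the others. None of the listed markers of Sertoli, Leydig, peritubular, endothelial or blood cells, nor any of the 6 listed glucocorticoid response genes, could be named in these tables. The part of those cells in the results was not tested. Of 5 macrophage markers only Aif1 was named, as a spermatid marker, at 0.21 ± 0.06 (adjusted p = 0.0592).

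Since the spermatid markers moved together, the bases before their start sites were read for a short site known from spermatid genes, TGACGTCA, the full cyclic AMP response element, which is the same on both strands. The sequences are from RefSeq (build GRCr8) and held 469 of the 578 markers. Only the first promoter listed for a gene symbol was read, so other promoters of a gene were not searched. All promoters below means 1 for each symbol. In windows of 250 bases before and 50 after the start, the site was in 3 of 50 spermatid markers that rose (6%). It was in 14 of 309 spermatid markers (4.53%), 5 of 151 SPC markers (3.31%) and 1.91% of all 27457 promoters. Of the markers that fell 1 of 11 held it (9.09%), and of the SPG markers 0 of 9. Its shorter form TGACGT, on either strand and contained in the longer site, was in 22.0% of the spermatid markers that rose, 14.6% of all spermatid markers, 8.61% of SPC markers, 22.2% of the 9 SPG markers, 18.2% of the 11 markers that fell and 8.22% of all promoters. The 250 bases before the start of 3 called markers are given because 2 of them rose and 1 fell, with the site in capitals. Tnp1 is at chr9:82044279-82044528 on the minus strand, Ccdc169 at chr2:141471560-141471809 on the plus strand and Bcas2 at chr2:193380750-193380999 on the plus strand, and the site ends 105, 55 and 59 bases before the start.
Tnp1: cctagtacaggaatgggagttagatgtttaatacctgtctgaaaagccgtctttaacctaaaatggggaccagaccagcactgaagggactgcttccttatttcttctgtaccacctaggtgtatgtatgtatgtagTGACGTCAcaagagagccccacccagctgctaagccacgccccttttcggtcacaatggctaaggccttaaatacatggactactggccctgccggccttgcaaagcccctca
Ccdc169: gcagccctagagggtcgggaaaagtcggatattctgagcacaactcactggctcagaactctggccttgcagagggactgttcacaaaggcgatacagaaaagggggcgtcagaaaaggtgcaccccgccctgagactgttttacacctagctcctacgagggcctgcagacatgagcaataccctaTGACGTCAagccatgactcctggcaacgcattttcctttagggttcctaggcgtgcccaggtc
Bcas2: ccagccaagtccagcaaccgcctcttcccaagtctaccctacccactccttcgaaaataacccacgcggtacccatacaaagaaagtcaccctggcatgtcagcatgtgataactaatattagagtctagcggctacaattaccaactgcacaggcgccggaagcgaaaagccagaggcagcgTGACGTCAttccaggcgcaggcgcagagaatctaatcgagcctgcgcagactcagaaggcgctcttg
The same site thus stood before a marker that rose by 37.7% (Tnp1), before one that rose by 24.7% (Ccdc169) and before one with a log2 fold change of -0.26 (Bcas2). The remaining called marker with it was Isg20l2 (0.22, adjusted p = 0.0167), named after its value was seen. Other strings were searched on both strands in the same way. TGACG, contained in the sites above, was in 40% of the spermatid markers that rose, 29.1% of all spermatid markers, 29.8% of SPC markers, 27.3% of the markers that fell and 22.0% of all promoters. GTTGCC was in 26%, 18.4%, 19.9%, 27.3% and 12.2% of the same sets. TGACCTCA was in 6%, 5.50%, 1.32%, 0% and 2.51% of them, and CAGGTG in 18%, 22.3%, 17.2%, 27.3% and 18.7%. None of the 50 markers that rose and had a promoter in the table held TGACGCAA or TTTCCCGC, which were in 0.565% and 1.03% of all promoters. A longer X-box string was also searched and is not given here. The strings were picked with the calls known. These are matches of letters in fixed windows and no test was made of them.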

How the data were processed

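RNA sequencing of 12 rat testis samples was analysed as 6 libraries (14-day and 21-day RS+IS) against 6 (control and 3-day). Ribosomal RNA had been removed and directional libraries made. The authors' methods and the submitters' processing notes name Trimmomatic, HISAT2 and HTSeq with Rnor_6.0 (rn6), without versions. The deposited tables hold an estimated count, a length in bases, an effective length and a TPM for each of 31715 transcripts and library, a layout those tools do not write, and the quantifier is not given in the sources used here. The deposited TPM values, which the authors normalized for effective length and library, served only as a check. Replicates were not pooled. The study calls the 3 samples of a group biological replicates, and the labels do not say which animals they came from. The p-values measure the spread between these samples.

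No gene names are in the tables. The 578 markers of the study's list were found by matching the listed counts to the deposited ones (tolerance 0.51 counts), as 425 single transcripts, 150 runs of neighbouring transcripts and 3 sums of 2 runs, 781 transcripts in all. Their counts were summed, which left 31512 features. Estimated counts were rounded. edgeR 4.0.16 (R 4.3.3) was used with TMM scaling, filterByExpr by arm and the quasi-likelihood test, with Benjamini-Hochberg adjustment at 0.05. The pairs of groups came from 1 fit of the 4 groups. TMM factors entered the CPM values, and logs were taken with a prior count of 2. The SE of a log2 fold change is its size over the square root of F. Single values per library were compared by an exact two-sided permutation test over all 924 splits. Figures were drawn with Matplotlib 3.10.9 in Python 3.11.15, with NumPy 2.4.6 and pandas 2.3.3.

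The members and lists were chosen with earlier results of these data known. Named are Stra8, Sycp3, Piwil1, Tnp1 and Tnp2, all SPG markers, the 12 highest and 12 lowest called markers with arms apart, in each function list the called members with the 3 smallest p-values, and the 2 highest and 2 lowest called transcripts outside the markers. Sycp2, Ccna1, Hmgb4, Chd5, Hils1, Odf1, Akap4, Otub2 and Aif1 were named after their values were seen. The function lists were meiotic chromosomes, cell division, germline RNA regulation, chromatin packaging, acrosome, flagellum, energy metabolism, chaperones, ubiquitin, lipid metabolism, kinases, 5 somatic cell lists and glucocorticoid response.

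Total estimated counts differed between all 12 libraries, so none was an exact copy of another. The chi-square over its degrees of freedom, taken over the 3 libraries of a group together, was 9.92 to 27.0. Because it pools the 3 libraries, it cannot show whether any pair were close copies. Tested on simulated data of 20975 features with 6 libraries against 6, edgeR recovered 3 of 50 true changes of 0.25 (log2), 17 of 49 of 0.5, 31 of 49 of 1 and 46 of 49 of 2, with 0 of 20294 unchanged features called. DESeq2 1.42.0 found 10, 25, 34 and 47 of 50 and called 26 of 20775 unchanged ones. Alternatives were RLE, total-count and other TMM scalings, other low-count filters, DESeq2, the mean of group means, a replicate block, each library and each group left out, single transcripts and counts implied by TPM. Chosen after seeing the data were the effective-length offset, TMM of the markers alone, both libraries that stood apart left out, the missing TPM restored, and the markers without Stra8 and Piwil1.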

Additional observations from a re-analysis of the deposited data

Results flagged for a closer look

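In 92 checks of the named markers and the class means, each over the 6 libraries of an arm, 7 had a library far from the rest of its arm, where chance flags about 1 in 20. Control replicate 1 was the far library in 4 of them. It had 48.7 CPM of Cited1 against 19.2 to 23.8 in the other 5 libraries of its arm, 32.6 CPM of Nucks1 against 21.3 to 24.5, 723 CPM of Hspa5 against 594 to 612, and 15.2 CPM of Ccnd1 against 8.08 to 10.5. In the chronic arm, 21-day replicate 1 had 16.7 CPM of Ccnd1 against 8.01 to 9.82, and 21-day replicate 2 had 16.5 CPM of Nucks1 against 20.3 to 21.5. The 3-day replicate 1 had 11.4 CPM of Stra8 against 8.71 to 9.67.

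Columns outside the counts also differed between the arms. Effective length, as a percent of length over transcripts of at least 1000 bases, was 90.33% in the lowest chronic library and at most 90.03% in the other arm. The TPM values of a chronic library (14-day replicate 3) summed to 18.01 TPM less than 1000000, where those of the other arm were within 0.09 TPM of it. Their part in the results is given beside Tnp1 and Stra8, and the cause of neither was tested.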

How the results depend on the processing

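The class medians kept their sign in every alternative run, and the 34 called named markers kept their direction in every alternative except Stra8 with the missing TPM given to it (0.31, adjusted p = 0.435). Fewer kept their call. Of the 34, 23 were still called with the mean of group means, 20 without a low-count filter, 15 without 21-day replicate 3, 14 without both libraries that stood apart, 10 without the 14-day group, 3 without the 3-day group, and 0 without the control group or without the 21-day group. Prm3 lost its call in 20 of 27 alternatives and Eqtn in 21. The counts of calls were far less stable, and the cause was not tested. Of the calls, 68.5% were higher as reported, 53.9% with total-count scaling, 57.8% with TMM outside the markers, 56.9% with DESeq2 and 26.2% with TMM of the markers alone, which moved the median of all features to -0.08. Total-count scaling gave 841 lower features, 25 lower markers and 19 lower SPC markers. Without a low-count filter 684 features and 22 markers (all spermatid) were higher and 4 SPC markers lower. DESeq2 gave 1571 higher and 1192 lower features, 129 higher markers (all spermatid), and 26 lower, 18 of them SPC. The mean of group means gave 8 lower markers, 3 of them SPC.

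Leaving out the control group left 2 higher and 1 lower features and 0 markers of any class. Leaving out the 3-day group left 307 higher and 68 lower features, 5 higher markers (all spermatid) and 1 lower (SPG 1, SPC 0). Leaving out the 14-day group left 203 and 65 features, 8 higher markers (all spermatid) and 4 lower, 1 of them SPC. Leaving out the 21-day group left 0 features and 0 markers. These settings compare 6 libraries with 3. With both libraries that stood apart left out, 358 features were higher and 160 lower, with 14 higher markers (all spermatid) and 6 lower, 2 of them SPC. TMM of the markers alone gave 666 higher and 1874 lower features, 71 lower markers and 61 lower SPC markers, an SPC median of -0.12 and a spermatid median of 0.067.

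With 1 library left out at a time, features called ranged from 376 to 1106 higher and from 241 to 641 lower, markers from 11 (without 21-day replicate 3) to 131 (without control replicate 2) higher (all spermatid) and from 6 to 15 lower, SPG markers from 3 to 5 lower and SPC markers from 1 to 10 lower. The number of markers that rose also moved by more than 1.5 times without control replicate 1 (21) or 3 (41), 3-day replicate 1 (14), 2 (34) or 3 (26), 14-day replicate 1 (21) or 3 (34) and 21-day replicate 2 (28). The medians ranged from -0.26 to -0.19 for SPG, from -0.06 to -0.02 for SPC and from 0.12 to 0.18 for spermatid markers. Within the arms, calls ranged from 0 to 1 (21 against 14 days) and from 0 to 2 (3 days against control). They were 0 and 0 with the 2 groups alone, and 2 and 26 with DESeq2.

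Same-numbered libraries of the 2 arms correlated by 0.06 on average in their deviations from the group means (-0.057 to 0.23, with 4 of 12 pairs over 0.1), so the numbers were not taken to pair samples. With the replicate block, 1082 features were higher and 522 lower, 95 markers rose and 13 fell, calls within the arms were 0 and 0, and Chmp2b was the 1 called named marker that no longer passed (adjusted p = 0.0557). Ccnd1, not called, changed sign to -0.039 without the 3-day group, -0.15 without the 21-day group, -0.048 with TMM of the markers alone, and lay between -0.15 and 0.20 (0.1994 at most) with 1 library left out. Cdk2ap2 was at 0.028 without the control group. In simulated counts of 6 against 6, edgeR found 3 of 50 changes of 0.25 on the log2 scale. Few features were changed there, while 1526 were called in these data, so this does not show what limited the calls here.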
